A study of Mus musculus with 21 samples.

Results

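The genes described here encode the machinery of oxidative phosphorylation, together with a few of its assembly factors. They were taken from a 3′ mRNA sequencing (QuantSeq) table of mouse lymphoid progenitors by symbol. Every protein_coding row whose symbol begins with Ndufa, Ndufb, Ndufc, Ndufs, Ndufv, Uqcr, Cox4 to Cox8, Atp5 or mt- was kept. This rule used no measured value and gave 104 of 21926 protein_coding rows. Of these members, 91 are nuclear genes, spread over 19 chromosomes, and 13 are mt- genes, the protein-coding genes of the mitochondrial genome. The nuclear members comprised 37 subunits and 8 assembly factors of complex I, 8 subunits of complex III, 11 subunits, 8 tissue isoforms and 1 supercomplex factor of complex IV, and 18 rows of complex V. The 13 mt- genes comprised 7 subunits of complex I, 1 of complex III, 3 of complex IV and 2 of complex V.

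In mitochondria, complexes I, III and IV pass electrons from NADH to oxygen and pump protons across the inner membrane, and complex V (ATP synthase) uses the returning protons to make ATP. Complexes I, III, IV and V are each built from nuclear-encoded subunits, which are made in the cytosol and imported, and from a few membrane subunits encoded in mitochondrial DNA, which include catalytic subunits of complexes III and IV and the proton path of complex V. Complex II is wholly nuclear-encoded. Mitochondrial mRNAs are cut from long transcripts of both strands of the mitochondrial genome, so their levels are set by a transcription system separate from that of the nuclear subunits.

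The cells were LP cells of C57BL6/J origin, lymphoid progenitors that lack *Ebf1*, a factor needed for B-cell commitment, and all groups share this deficiency. They were cultured on OP9 stromal cells with SCF, IL-7 and Flt3L and without Notch stimulation, and made to express Cas9-GFP. They were then transduced with retrovirus carrying a single-guide RNA (sgRNA) and the surface reporter hNGFR. The virus for each target came from pooled plasmids with different sgRNAs, and the control sgRNAs were against luciferase. GFP and hNGFR double-positive cells were sorted 5 days after the sgRNA. The 15 QuantSeq libraries form 5 conditions of 3 libraries each: sgControl, and sgRNAs against *Lmo2*, *Zbtb1*, *Cbfa2t2* and *Cbfa2t3*. Lmo2 is a transcriptional adaptor of hematopoietic progenitors, Zbtb1 is a zinc-finger factor, and Cbfa2t2 and Cbfa2t3 are corepressors of the ETO family. The study disrupted each gene to learn what it does for the progenitors, and separate ChIP-seq located Zbtb1 and Cbfa2t3 on the genome of LP cells.

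Values are CPM, the reads (3′ tags) of a gene scaled to a library of 1000000 reads. Because 1 tag is made per transcript end, a value does not grow with transcript length, and levels of different genes are compared on this scale. Whole reads could be recovered from the values, which gave 1705416 to 2095447 reads per library, and 3 reads corresponded to 1.43 to 1.76 CPM. Lymphoid progenitor markers were present as labelled, with 11 of 11 above a mean CPM of 1 and a summed level of 1473 to 1753, although single markers differed between conditions. Under sgZbtb1, *Ly6d* (limma, log2 fold change −2.40, adjusted p = 3.19e-20), *Kit* (−1.14, adjusted p = 0.0205) and *Ptprc* (−0.28, adjusted p = 0.0393) were called lower and *Cd34* (0.53, adjusted p = 0.00107) and *Cd93* (0.52, adjusted p = 0.000159) higher. Of all genes tested, 2.94% were called lower and 1.85% higher there. *Ly6d* was also called lower in sgCbfa2t2 (−0.69, adjusted p = 0.0186) and sgCbfa2t3 (−1.43, adjusted p = 6.82e-10), where 0.121% and 0.407% of all genes were. Of 18 markers of the OP9 stroma, 1 exceeded that mean, the sum was 3.44 to 14.7, and *Col3a1*, *Col5a1*, *Dcn*, *Lum* and *Postn* were at 0. The mRNA of 3 targets was not lower under its own sgRNA. *Zbtb1* was 62.7, 66.6 and 55.7 in sgControl and 94.4, 113 and 109 in the libraries labelled sgZbtb1 (limma, log2 fold change 0.77 ± 0.16 SE, adjusted p = 0.00102), and *Cbfa2t3* was 210, 189 and 172 against 340, 344 and 364 (0.88 ± 0.11 SE, adjusted p = 1.67e-07). *Cbfa2t2* was 11.03, 12.2 and 12.3 against 25.5, 23.9 and 16.4, and *Lmo2* was 23.2, 16.2 and 15.8 against 8.48, 24.4 and 15.9. Neither difference passed the test (adjusted p = 0.412 and 0.956), and the *Lmo2* values overlapped. The study examined Lmo2, Zbtb1 and Cbfa2t3 protein by immunoblot. Protein and editing at the cut sites are not in these files, and the groups are named by their labels throughout.

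The mt- members fell into a group with many reads and a group with none. In sgControl, *mt-Nd4* (4898 ± 632 CPM, SD, n = 3), *mt-Nd1* (4770 ± 231), *mt-Nd2* (4414 ± 89.1) and *mt-Cytb* (3375 ± 131) were far above every nuclear member. *mt-Co1* stood at 1092 ± 53.1, *mt-Nd5* at 842 ± 123, *mt-Nd6* at 66.1 ± 5.10 and *mt-Nd3* at 10.1 ± 3.79. The remaining 5, *mt-Co2*, *mt-Co3*, *mt-Atp6*, *mt-Atp8* and *mt-Nd4l*, were listed at 0 in all 15 libraries. Among them are subunits 2 and 3 of cytochrome c oxidase and both mitochondrial subunits of ATP synthase, so the mt- members said nothing about complex V and spoke for complex IV through *mt-Co1* alone.

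These zeros coincide with sequence that occurs more than once in the mouse genome. Nuclear chromosome 1 holds a copy of part of the mitochondrial genome, at chr1:24611535-24616184 (4650 bases, GRCm38.p6), which covers chrM:6394-11042. Each gene was divided into all its 75-base windows, the read length, and each window was searched for an exact copy elsewhere on either strand. All windows had a copy for the 5 genes listed at 0, which comes to 607 of 607 for *mt-Atp6*, 130 of 130 for *mt-Atp8*, 610 of 610 for *mt-Co2*, 710 of 710 for *mt-Co3* and 223 of 223 for *mt-Nd4l*. *mt-Nd3*, with 271 of 274 windows copied, averaged 14.1 CPM over the 15 libraries. The share was 61.5% for *mt-Nd4*, 39.8% for *mt-Co1*, 5.71% for *mt-Nd2* and 1.66% for *mt-Nd5*, and no window of *mt-Nd1*, *mt-Cytb* or *mt-Nd6* had a copy. A second copy, at chr2:22587559-22590200, spans chrM:4775-7416 and holds exact copies of 413 windows, from *mt-Nd2*, *mt-Co1* and *mt-Co2*.

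The pattern was not the same at every gene. The last 300 bases of *mt-Co1* were copied in full, and yet the gene averaged 976 CPM. How reads with more than 1 match were treated is not given in the sources used here, and the part this plays in the zeros was not tested. No window in the last 300 bases of *mt-Nd4* was copied, and 55 of 226 (24.3%) were in those of *mt-Nd2*. The values of *mt-Co1* and *mt-Nd3*, and in smaller part that of *mt-Nd2*, are therefore uncertain as levels. Those of *mt-Nd1*, *mt-Cytb* and *mt-Nd6* come from sequence with no exact copy.

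**Figure D1:**
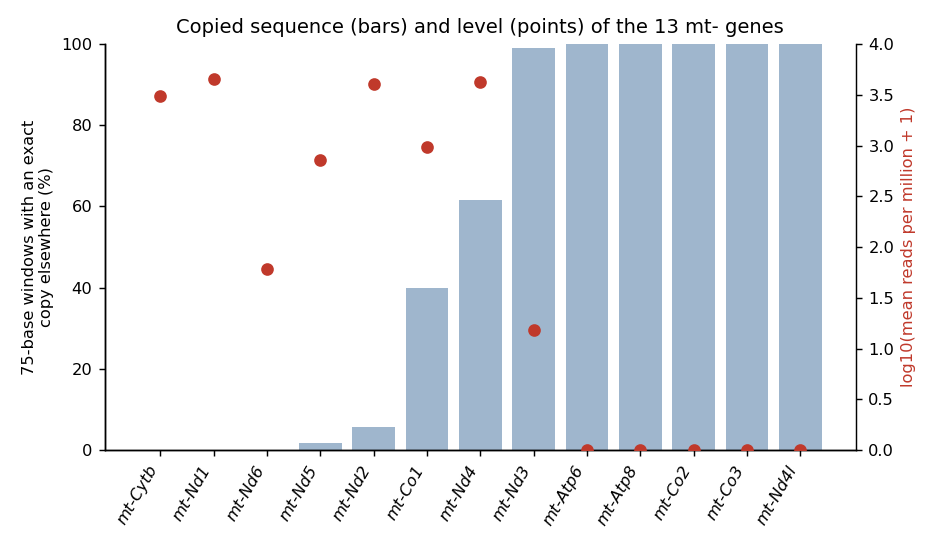
Share of 75-base windows with an exact copy elsewhere in the genome (bars, left axis, percent) and mean level over 15 libraries (points, right axis, log10 of CPM plus 1) for the 13 mt- genes. The 5 genes at 100% all lie at 0 on the right axis, and *mt-Nd3*, at 98.9%, is the lowest of the others.

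The ends of 4 mt- genes and a stretch inside *mt-Nd4* show the contrast. The sequences below were read 5′ to 3′ from the plus strand of GRCm38.p6, and capitals mark bases that lie in a 75-base window with an exact copy on chromosome 1. *mt-Co2* (chrM:7622-7696) and *mt-Atp6* (chrM:8533-8607) are copied base for base on the minus strand at chr1:24614882-24614956 and chr1:24613971-24614045. The 75 bases of *mt-Nd4* (chrM:11006-11080) lie within the gene and span the end of the copied block, with 37 bases inside it. The ends of *mt-Nd1* (chrM:3633-3707) and *mt-Cytb* (chrM:15214-15288) lie outside it.
mt-Co2: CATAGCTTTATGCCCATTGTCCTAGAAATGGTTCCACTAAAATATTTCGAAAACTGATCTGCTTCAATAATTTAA
mt-Atp6: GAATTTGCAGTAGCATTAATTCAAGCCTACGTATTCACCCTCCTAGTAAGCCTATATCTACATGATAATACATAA
mt-Nd4: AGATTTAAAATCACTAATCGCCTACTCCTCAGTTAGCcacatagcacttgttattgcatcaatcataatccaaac
mt-Nd1: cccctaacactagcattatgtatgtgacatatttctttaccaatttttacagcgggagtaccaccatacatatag
mt-Cytb: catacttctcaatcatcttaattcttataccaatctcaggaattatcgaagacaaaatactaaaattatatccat

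Some mt- genes overlap in position. *mt-Nd5* and *mt-Nd6* overlap on opposite strands, *mt-Nd4* overlaps *mt-Nd4l*, and *mt-Atp6* overlaps *mt-Atp8* and *mt-Co3* on the same strand. *mt-Nd6*, the only member encoded on the light strand, is known to carry little or no poly(A) tail, and a library primed from poly(A) reads it poorly.

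Levels of the nuclear members ordered by complex. In sgControl the median subunit of complex IV stood at 325 CPM, that of the 17 detected rows of complex V at 235, that of complex III at 201 and that of complex I at 139. The 8 complex I assembly factors (*Ndufaf1* to *Ndufaf8*), chaperones that are not part of the finished enzyme, had a median of 27.4, from *Ndufaf1* at 12.4 to *Ndufaf4* at 68.7. The highest members were *Atp5g3* (903 ± 60.9 CPM, SD, n = 3), a membrane ring subunit of ATP synthase, and *Atp5a1* (748 ± 22.5) and *Atp5b* (692 ± 42.7), the subunits of its catalytic head. In complex IV they were *Cox6c* (618 ± 22.8), *Cox6a1* (518 ± 32.1) and *Cox6a2* (491 ± 112). In complex III they were *Uqcrh* (380 ± 16.1), *Uqcrq* (282 ± 24.7) and *Uqcr10* (208 ± 17.4), and in complex I *Ndufc2* (255.7 ± 7.58), *Ndufa2* (219 ± 25.9) and *Ndufa3* (196 ± 6.83), all small accessory subunits. Libraries of neighbours in these orders overlapped, as for *Cox6a2* with *Cox6c*, *Cox6a1* and *Cox4i1*, *Atp5a1* with *Atp5b*, *Ndufa2* with *Ndufa3*, *Ndufa3* with *Ndufv3* and *Uqcr10* with *Uqcrc1* and *Uqcrc2*, so neither these orders nor the last place named for complexes I, III and IV is resolved. Summed, the nuclear members took 1.62% of sgControl reads and the mt- members 1.95%.

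**Figure D2:**
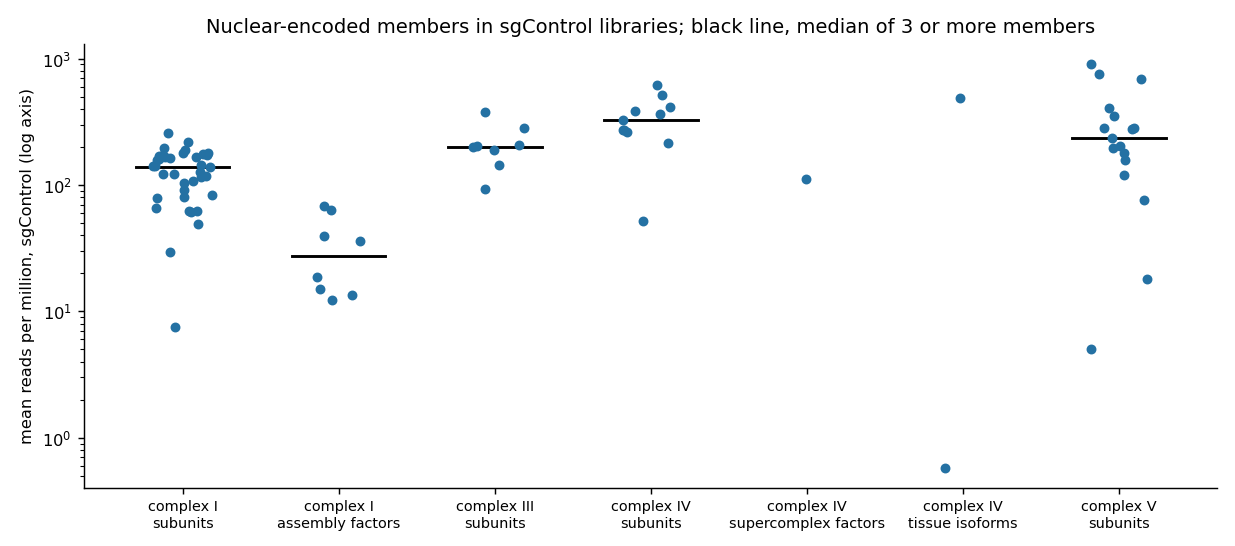
Mean level in the 3 sgControl libraries (log axis, CPM) of each nuclear-encoded member with a value above 0, by complex and role, with black lines at medians of 3 or more members. Complex I assembly factors lie lowest, with a median of 27.4, and complex IV subunits highest, with a median of 325.

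Several subunits come in tissue isoforms, and the progenitors used mostly the ubiquitous ones. *Cox4i1* was at 417 ± 56.5 CPM, *Cox6b1* at 271 ± 5.02, *Cox7a2* at 382 ± 20.5, *Cox7b* at 215 ± 22.1, *Cox8a* at 264 ± 33.5 and *Ndufa4* at 52.0 ± 2.41. Their counterparts *Cox4i2*, *Cox6b2*, *Cox7a1*, *Cox7b2*, *Cox8c* and *Ndufa4l2* were at 0 in sgControl, and *Cox8b* stood at 0.581 ± 0.579, under the level of 3 reads. The 3 genes for the membrane ring of ATP synthase encode the same mature protein and differed in level, with *Atp5g3* at 903, *Atp5g1* at 119 ± 3.50 and *Atp5g2* at 5.04 ± 1.44. *Cox6a2*, known as the heart and skeletal muscle isoform, was an exception, with 609, 385 and 478 CPM in sgControl beside *Cox6a1*. It overlaps *Itgad* on the opposite strand, and no window in its last 300 bases was copied elsewhere. Under sgZbtb1 it read 430, 374 and 404, within the sgControl range in part (log2 fold change −0.26, adjusted p = 0.125). Without sgControl replicate 2, its lowest control, it was called lower (−0.43, adjusted p = 0.0126).

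Copies also touch the nuclear members. Among the 82 of 83 fitted members whose last 300 bases could be searched, 8 had copies of more than 50% of their windows (*Atp5g2*, *Atp5h*, *Atp5l*, *Cox7a2l*, *Cox7c*, *Ndufs3*, *Ndufs5* and *Uqcrb*), with a median level of 77.6 CPM. The 20 members with a smaller copied share had a median of 175, and the 54 with none a median of 183. The levels of the 8 are uncertain for this reason, among them *Ndufs5* (7.56 in sgControl), *Atp5g2* and *Ndufs3*.

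The effect of each sgRNA was tested with limma on log2(value + 1) for 11554 genes whose mean CPM exceeded 1, among them 83 nuclear and 8 mt- members. All 4 comparisons use the same 3 sgControl libraries, so their values are set side by side and are not independent of each other. A gene was called at an adjusted p under 0.05 over all 11554 genes.

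Under sgZbtb1 most detected mitochondrial mRNAs fell. Of the 8 mt- members tested, 5 were called lower (*mt-Nd1*, *mt-Nd4*, *mt-Nd5*, *mt-Cytb* and *mt-Co1*) and none higher, where 2.94% of all genes tested were called lower and 1.85% higher. In CPM these 5 were lower by 15.97% to 29.46%. At the same time 3 of 83 nuclear members were called higher (*Cox6c*, *Ndufa10* and *Ndufa12*) and none lower. Without sgZbtb1 replicate 2 the mt- count was 3, and without sgControl replicate 1 or sgZbtb1 replicate 3 the nuclear count was 1. When any single library of either group was left out, 2.65% to 3.97% of all genes were called in either direction, against 4.79% with all libraries. At an unadjusted p under 0.05, 19 nuclear members were higher and 2 lower, and 6 mt- members were lower and none higher, where 7.37% of all genes were higher and 10.2% lower.

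*mt-Nd4*, a proton-pumping subunit of complex I, gave 5624, 4605 and 4466 CPM in sgControl and 3765, 3019 and 3582 in sgZbtb1. The groups did not overlap, and the log2 fold change was −0.50 ± 0.08 SE (limma, adjusted p = 4.63e-06). *mt-Cytb*, the only mitochondrially encoded subunit of complex III, gave 3512, 3251 and 3361 against 2794, 2468 and 2580, again apart (−0.37 ± 0.07 SE, adjusted p = 9.57e-05). *mt-Nd5*, another pump subunit of complex I, gave 922, 903 and 700 against 693, 606 and 607 (−0.40 ± 0.09 SE, adjusted p = 0.00248). Its lowest sgControl library lay just above the highest sgZbtb1 library.

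*mt-Nd1*, which helps form the ubiquinone site of complex I, gave 5016, 4558 and 4736 in sgControl and 4237, 3508 and 3927 in sgZbtb1 (−0.30 ± 0.07 SE, adjusted p = 0.00183). *mt-Co1*, the catalytic subunit of complex IV, gave 1146, 1040 and 1091 against 869, 945 and 939 (−0.25 ± 0.08 SE, adjusted p = 0.0444). The *mt-Co1* call was the weakest, since it was lost whenever any single library of either group was left out (adjusted p 0.0140 to 0.184 over all alternatives) and in 5 of 9 other settings. *mt-Nd2* also lay below sgControl in every library, with 4475, 4454 and 4312 against 4063, 3833 and 3818, but was not called (−0.18, adjusted p = 0.105). For each of these 6 genes the exact two-sided permutation test gave p = 0.1, the smallest that 3 against 3 libraries allow.

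*mt-Nd6*, the light-strand gene, gave 66.2, 71.2 and 61.0 in sgControl and 52.5, 47.3 and 75.1 in sgZbtb1 (−0.20, adjusted p = 0.597), and *mt-Nd3* gave 13.9, 6.37 and 9.97 against 15.1, 12.9 and 4.91 (0.04, adjusted p = 0.972). Both overlapped their controls.

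**Figure D3:**
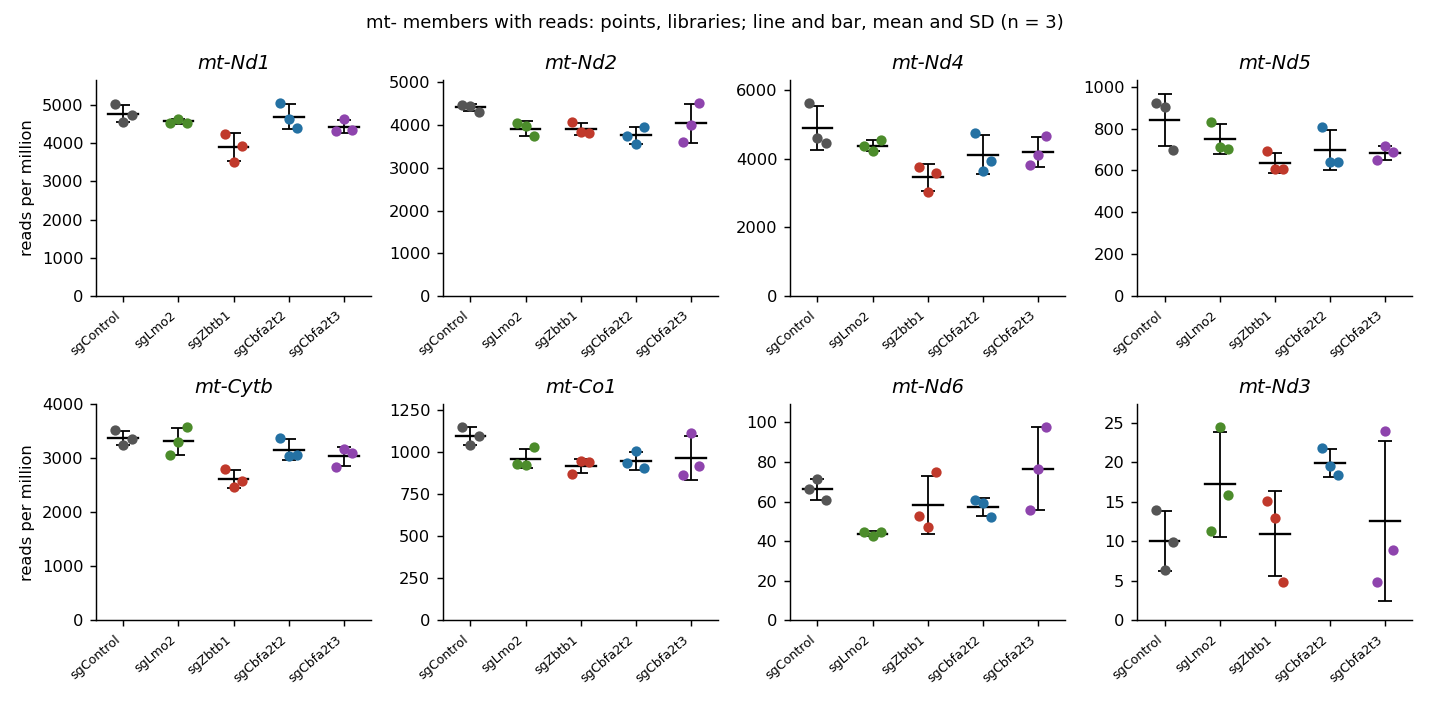
CPM of the 8 mt- members with reads, in each of the 15 libraries (points) with mean and SD of 3 libraries (line and bar). The sgZbtb1 libraries lie below every sgControl library for *mt-Nd1*, *mt-Nd2*, *mt-Nd4*, *mt-Nd5*, *mt-Cytb* and *mt-Co1*, and overlap them for *mt-Nd6* and *mt-Nd3*.

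Under the other sgRNAs no mt- member was called in the fit described above. In sgCbfa2t2 1 was called without sgCbfa2t2 replicate 1 (0.173% of all genes called), and in sgCbfa2t3 1 without sgControl replicate 3 (0.234%). In sgLmo2, 0.00866% of all genes were called higher and the same share lower. *mt-Nd6* gave 44.7, 42.5 and 44.4 CPM, below every sgControl library (log2 fold change −0.58, adjusted p = 0.669), as did *mt-Nd2* with 4049, 3973 and 3732 and *mt-Co1* with 929, 923 and 1026. In sgCbfa2t2 (0.026% of genes called higher, 0.121% lower), *mt-Nd2* gave 3747, 3566 and 3955 (−0.23, adjusted p = 0.150) and *mt-Co1* 931, 1002 and 902 (−0.21, adjusted p = 0.337). *mt-Nd3* gave 21.8, 19.6 and 18.4 there, above every sgControl library (0.97, adjusted p = 0.388).

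In sgCbfa2t3 (0.13% of genes called higher, 0.407% lower), *mt-Cytb* gave 2838, 3172 and 3094 CPM, below all sgControl libraries (−0.15, adjusted p = 0.379), and *mt-Nd5* gave 649, 715 and 689, which overlapped (−0.29, adjusted p = 0.145). At an unadjusted p under 0.05, 3 of 8 mt- members were lower in sgLmo2, 4 in sgCbfa2t2 and 5 in sgCbfa2t3, where 2.48%, 5.12% and 6.27% of all genes were, and 1 was higher, in sgCbfa2t2 (4.44% of all genes).

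Across the 5 conditions together, 6 of the 91 fitted members were called by the moderated F test, where 4.54% of all genes were. They were *mt-Nd4* (adjusted p = 9.27e-05), *mt-Cytb* (0.000298), *mt-Nd1* (0.00723), *mt-Nd5* (0.0185), *mt-Nd6* (0.0320) and the nuclear *Atp5e* (0.0331). *mt-Nd6* differed from the rest in its order of conditions, being lowest in sgLmo2 and highest in sgCbfa2t3 (55.8, 76.5 and 97.5), although its spread in the latter overlapped sgControl. Without sgZbtb1 replicate 2 the count across conditions was 3 of 91, where 3.15% of all genes were called.

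Whether sgZbtb1 differed from the other sgRNAs was tested directly, in contrasts chosen after these values were seen. Against sgLmo2, *mt-Cytb* (log2 difference −0.34, adjusted p = 0.00032), *mt-Nd4* (−0.35, adjusted p = 0.00202) and *mt-Nd1* (−0.24, adjusted p = 0.0178) were lower in sgZbtb1, where 5.06% of all genes were called in either direction. Against sgCbfa2t2 (2.27% of genes called), *mt-Nd1* (−0.27, adjusted p = 0.00777) and *mt-Cytb* (−0.27, adjusted p = 0.00979) were lower, and the nuclear *Atp5md*, a small ATP synthase subunit, was lower too (−0.43, adjusted p = 0.0289). Against sgCbfa2t3 no member passed (1.13% of genes called). The lowest adjusted p among members were those of *mt-Nd4* (0.0530, log2 difference −0.28) and *mt-Cytb* (0.108, log2 difference −0.22). The 3 contrasts share the sgZbtb1 libraries.

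The nuclear members lay slightly above sgControl in all 4 comparisons. Their median log2 fold change was 0.07 under sgLmo2, 0.15 for sgZbtb1, 0.16 for sgCbfa2t2 and 0.13 for sgCbfa2t3, where the medians of all genes were 0.01, −0.03, 0.00 and −0.01. Of 83, 60, 66, 74 and 72 were above 0 in that order, where 6044, 5400, 5855 and 5617 of all 11554 genes were. For the 8 mt- members the medians were −0.16, −0.27, −0.21 and −0.14, with 7, 7, 7 and 6 below 0. Without sgControl replicate 1 the mt- median in sgLmo2 was −0.070, and without sgLmo2 replicate 3 the nuclear median there was 0.04. The shared sgControl libraries enter all of these values. In the fit of all libraries, the only calls among nuclear members were the 3 under sgZbtb1, a share of 3.61% where 1.85% of all genes were called higher.

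**Figure D4:**
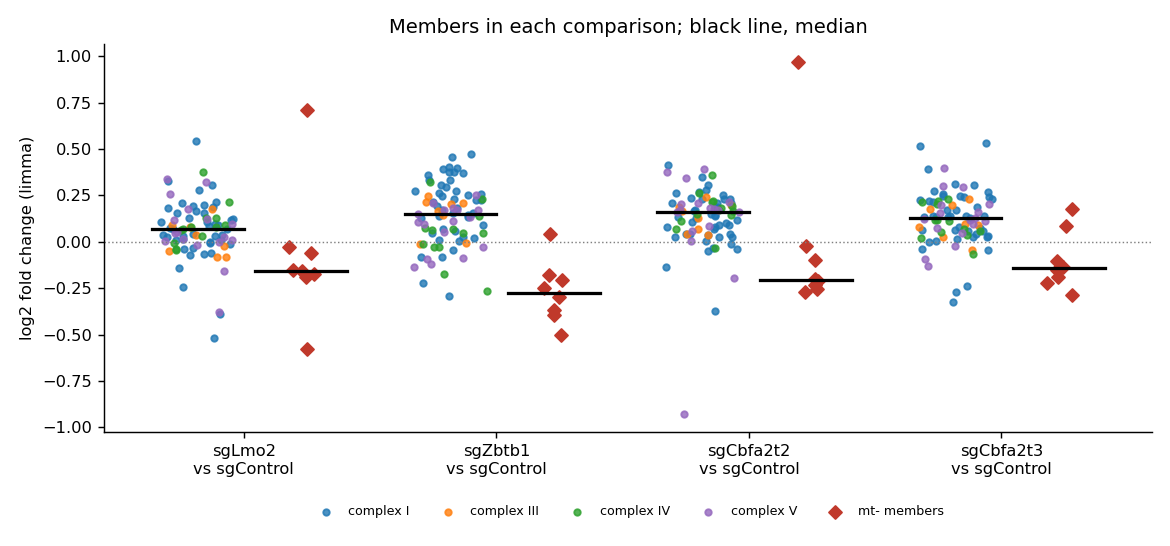
Log2 fold change against sgControl (limma) of the 83 nuclear members, coloured by complex, and the 8 mt- members (red diamonds) in each comparison, with black lines at medians. Nuclear medians lie between 0.07 and 0.16 and mt- medians between −0.27 and −0.14, and most single members lie within 0.5 of 0.

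Counted by library, 24 of 83 nuclear members had all 3 sgZbtb1 values above all 3 sgControl values and 4 had all below, where 10.1% and 12.8% of all genes did. The counts were 10 and 2 in sgLmo2 (all genes 5.62% and 4.97%), 14 and 0 in sgCbfa2t2 (6.88% and 6.85%) and 14 and 1 in sgCbfa2t3 (6.7% and 9.06%). Of the 8 mt- members, 6 lay wholly below sgControl under sgZbtb1, 3 under sgLmo2, 3 under sgCbfa2t2 and 1 under sgCbfa2t3.

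Of the 3 nuclear members called, *Ndufa12*, an accessory subunit of complex I, gave 131, 162 and 137 CPM in sgControl and 217, 202 and 178 in sgZbtb1 (log2 fold change 0.48 ± 0.12 SE, adjusted p = 0.00675). *Ndufa10*, another complex I accessory subunit, gave 177, 193 and 165 against 233, 213 and 263 (0.40 ± 0.11 SE, adjusted p = 0.0179). *Cox6c*, a small subunit of complex IV, gave 594, 622 and 639 against 720, 749 and 859 (0.32 ± 0.08 SE, adjusted p = 0.00571). In all 3 the groups were apart.

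*Cox6c* was also above every sgControl library in sgLmo2 (651, 681 and 695), sgCbfa2t2 (685, 749 and 687) and sgCbfa2t3 (730, 718 and 692), without being called there (adjusted p = 0.908, 0.401 and 0.300). The *Ndufa12* call was lost without sgControl replicate 1 or sgZbtb1 replicate 1, that of *Ndufa10* without sgControl replicate 1, sgControl replicate 3 or sgZbtb1 replicate 3, and that of *Cox6c* without sgZbtb1 replicate 3.

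Further nuclear members were apart from sgControl in sgZbtb1 without being called. *Ndufab1*, the mitochondrial acyl carrier protein, gave 60.4, 76.98 and 61.0 in sgControl against 93.3, 86.5 and 80.03 (0.39, adjusted p = 0.119). The assembly factors *Ndufaf4* (0.37, adjusted p = 0.141) and *Ndufaf6* (0.37, adjusted p = 0.606) lay above as well, the latter at fewer than 20 CPM in every sgZbtb1 library.

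*Atp5e*, the smallest subunit of the ATP synthase head, gave 247, 222 and 236 CPM in sgControl. It was above all of these in every other condition, with 286, 316 and 280 under sgLmo2, 273, 262 and 259 under sgZbtb1, 276, 338 and 314 under sgCbfa2t2 and 302, 303 and 264 under sgCbfa2t3. Its log2 fold changes were 0.32, 0.17, 0.39 and 0.30, with the lowest adjusted p in sgCbfa2t2 (0.0758). It was the only nuclear member called across the 5 conditions.

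In the other comparisons no nuclear member was called in the fit of all libraries. Some alternatives given in the closing section called 1 or 2 in sgCbfa2t2. The values below are, beside *Atp5e*, the largest among members with a mean of at least 10 CPM whose libraries did not overlap those of sgControl, and larger fold changes occurred among members that overlapped or were lower in level. In sgLmo2 they were *Ndufaf3* (log2 fold change −0.39), *Ndufa8* (0.30), *Atp5md* (0.26), *Ndufs3* (−0.25) and *Ndufs4* (0.21), with adjusted p from 0.850 to 0.947. In sgCbfa2t2 they were *Ndufab1* (0.41), *Cox4i1* (0.36), *Ndufs7* (0.35), *Atp5md* (0.34) and *Ndufa13* (0.28), with adjusted p from 0.125 to 0.397. In sgCbfa2t3 they were *Ndufaf8* (0.52), *Ndufs7* (0.27), *Ndufaf3* (0.25), *Ndufs4* (0.24) and *Uqcrc2* (0.23), with adjusted p from 0.135 to 0.733. *Ndufaf8* gave 50.5, 68.9 and 69.2 in sgControl and 101.3, 80.5 and 87.5 in sgCbfa2t3, and *Ndufaf3* was below its controls in sgLmo2 (24.3, 27.9 and 30.1 against 37.7, 38.8 and 32.3) and above them in sgCbfa2t3 (46.6, 42.3 and 40.4).

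By complex, the median log2 fold change in sgZbtb1 was 0.17 over the 37 complex I subunits, 0.35 over the 8 assembly factors, 0.19 over the 8 complex III subunits, 0.05 over the 11 complex IV subunits and 0.11 over the 17 complex V rows. All 8 assembly factors were above 0 there, from 0.03 to 0.46, and none was called. In sgCbfa2t2 the order was different, with 0.13, 0.12, 0.15, 0.17 and 0.17, and in sgCbfa2t3 the values were 0.13, 0.24, 0.09, 0.11 and 0.12. In sgLmo2 every complex stood between −0.01 and 0.09.

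The 2 genomes were compared within each library as the summed level of the mt- members over that of the nuclear members, a ratio that does not depend on how a library is scaled. Its log2 was 0.38, 0.22 and 0.19 in sgControl. It was 0.10, 0.07 and 0.06 with sgLmo2, −0.10, −0.26 and −0.19 with sgZbtb1, 0.11, −0.23 and −0.02 with sgCbfa2t2, and −0.16, −0.02 and 0.14 in sgCbfa2t3. All 12 libraries of the 4 sgRNAs lay below all 3 sgControl libraries. The mean was 0.27 ± 0.10 (SD, n = 3) in sgControl, and the group means lay 0.19, 0.45, 0.31 and 0.28 below it, in the order given. The sgLmo2 and sgZbtb1 libraries did not overlap each other, and those of sgCbfa2t2 and sgCbfa2t3 overlapped both. The 2 sums weigh the complexes differently. In sgControl, complex I genes gave 15000 of 19466 CPM of the mt- sum and complex V genes gave 0. Complex I genes gave 5042 of 16172 CPM of the nuclear sum.

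Under every sgRNA the mean nuclear sum was above that of sgControl and the mean mt- sum below it, and neither sum was tested. The nuclear sum was 15964, 16166 and 16385 CPM in sgControl and was higher by 5.05% with sgLmo2, 8.61% with sgZbtb1, 11.4% with sgCbfa2t2 and 8.58% with sgCbfa2t3, with no library of these groups below 16593. The mt- sum was 20775, 18888 and 18736 in sgControl and 16489, 14439 and 15533 in sgZbtb1, a mean lower by 20.4%. In sgLmo2 (17831, 17829 and 18179), sgCbfa2t2 (18738, 16618 and 16948) and sgCbfa2t3 (16137, 17833 and 18333) the mean was lower by 7.81%, 10.4% and 10.4%. The mt- sums of sgCbfa2t2 overlapped those of sgControl, and sgControl replicate 1 (20775) raised the control mean in every comparison. A sgCbfa2t2 library, replicate 2, stood apart with the highest nuclear sum (19432) and the lowest share of mitochondrial reads, rRNA included (5.03%, where sgControl had 6.72% to 6.89%). Without it the median log2 fold change of nuclear members in sgCbfa2t2 was 0.08, and the ratio lay 0.22 below sgControl.

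**Figure D5:**
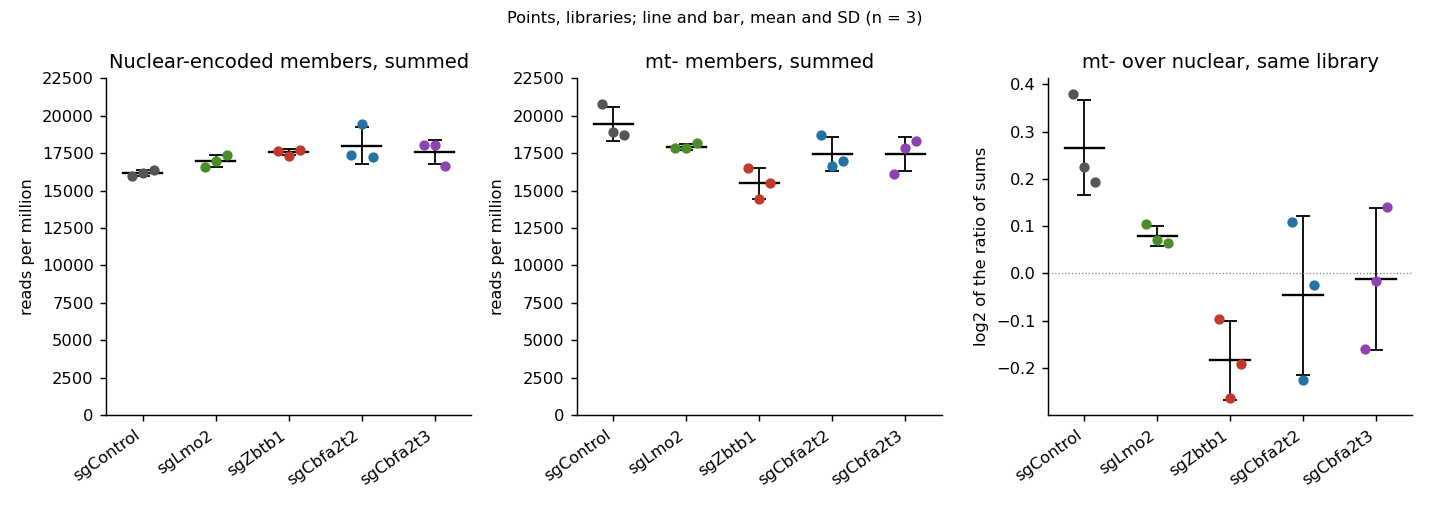
Summed level of nuclear and of mt- members (CPM) and log2 of the mt- over nuclear ratio, per library (points) with mean and SD of 3 libraries. The sgControl ratios of 0.19 to 0.38 lie above all others, and the sgZbtb1 ratios lie lowest on average.

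In these bulk libraries, fewer mitochondrial transcripts per cell and a change in the mixture of cells or of total RNA cannot be told apart. The lymphoid markers given above moved in both directions in sgZbtb1. Of 7 erythroid markers only *Hbb-bt* passed a mean of 1, and *Alas2*, *Hba-a1*, *Hba-a2* and *Hbb-bs* were at 0. *Hbb-bt* was called higher in sgCbfa2t3 (log2 fold change 0.72, adjusted p = 0.00303), and the sum of the list was 114 to 148 CPM in sgControl, 71.2 to 113 in sgLmo2, 112 to 168 in sgZbtb1, 153 to 182 in sgCbfa2t2 and 184 to 277 in sgCbfa2t3. Of 8 myeloid markers 2 passed that mean, *Elane*, *S100a8* and *S100a9* were at 0, and the sum was 3.83 to 30.3 over all libraries. Of 4 listed RNAs that stay in the nucleus, 3 were in the fit. *Malat1*, *Kcnq1ot1* and *Neat1* were called lower in sgZbtb1 and sgCbfa2t3, where 2.94% and 0.407% of all genes were. *Malat1* and *Kcnq1ot1* were called lower in sgCbfa2t2 (0.121% of all genes), and none was called in sgLmo2. The sum over the list was 2060 to 2461 CPM in sgControl and 1692 to 2390 with sgLmo2, which overlapped. It was 1234 to 1422 with sgZbtb1, 999 to 1670 with sgCbfa2t2 and 1247 to 1607 with sgCbfa2t3. The mitochondrial rRNAs *mt-Rnr1* and *mt-Rnr2* were lower in every group mean, with a summed level of 47377 to 49889 in sgControl and 33587 to 48216 elsewhere. They were called only in sgCbfa2t2 (log2 fold change −0.39, adjusted p = 0.00502, and −0.30, adjusted p = 0.0173), not in sgZbtb1 (−0.18 and −0.16). Among 10 mitochondrial tRNAs tested, 9 were below 0 in sgZbtb1, with a median of −0.38. *mt-Tq* was called lower there (limma, adjusted p = 0.0393, 2.94% of all genes called lower). No tRNA was called in sgLmo2, sgCbfa2t2 or sgCbfa2t3, where the medians were −0.09, −0.18 and −0.21. Of 11 p53 targets tested, 2, *Cdkn1a* and *Bax*, were called higher in sgZbtb1 (1.85% of all genes), where the summed level was 1215 to 1332 against 981 to 991 in sgControl. The part of these markers and RNAs in the result was not tested.

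Genes that work with the members but lie outside the naming rule were counted the same way. In sgZbtb1, where 1.85% of all genes were called higher, 5 of 77 mitochondrial ribosomal protein genes were called higher (*Mrpl2*, *Mrpl12*, *Mrpl42*, *Mrpl47* and *Mrps5*), with a median log2 fold change of 0.23 and 64 above 0. Of 80 cytosolic ribosomal protein genes, 3 were called higher (*Rpl8*, *Rpl13* and *Rpl14*), with a median of 0.02 and 43 above 0. Among all 11554 genes, 5400 were above 0 in sgZbtb1. No other comparison called a gene of either list. The mitochondrial ribosomal medians were 0.04 in sgLmo2, 0.11 in sgCbfa2t2 and 0.14 in sgCbfa2t3, and the cytosolic ones 0.05, 0.14 and 0.06. In sgCbfa2t2, 79 of 80 cytosolic ribosomal genes were above 0, where 5855 of all 11554 genes were. None of the 4 complex II subunits was called in any comparison, and their medians were 0.12, 0.16, 0.18 and 0.19 in the order sgLmo2, sgZbtb1, sgCbfa2t2 and sgCbfa2t3. Cytochrome c (*Cycs*), the electron carrier between complexes III and IV, gave 0.54 in sgZbtb1 (adjusted p = 0.110), and *Cyc1*, the cytochrome c1 subunit of complex III that the symbol rule misses, gave 0.37 (adjusted p = 0.0827).

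None of 8 further complex I assembly genes, 6 of complex III, 24 of complex IV and 4 of ATP synthase was called in any comparison. The same was true of 30 genes of mitochondrial DNA and RNA handling. Among these *Tfam*, which packages and transcribes mitochondrial DNA, was at 72.1 ± 7.04 CPM in sgControl and 64.1 ± 10.4 in sgZbtb1 (−0.18, adjusted p = 0.612), and *Polrmt*, the mitochondrial RNA polymerase, at 16.9 ± 4.80 and 16.8 ± 6.15. *Lrpprc*, which with *Slirp* stabilises mitochondrial mRNAs, was at 127 ± 1.52 and 136 ± 10.5. Of 9 nuclear regulators of respiratory genes none was called, with *Nrf1* at −0.22 (adjusted p = 0.542), *Gabpa* at 0.10 (adjusted p = 0.895) and *Pprc1* at 0.45 (adjusted p = 0.258) in sgZbtb1.

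The ChIP-seq lists held 5898 Zbtb1 peaks and 6077 Cbfa2t3 peaks, each a single list per factor made from 2 replicates, and neither had a peak on the mitochondrial genome. By the nearest gene that the authors assigned, 8 of 83 fitted nuclear members (9.64%) had a Zbtb1 peak, where 26.8% of all genes in the fit did. For Cbfa2t3 the same number of members had one, where 20.5% of genes did. In the promoter class 3 members (3.61%) had a peak of Zbtb1 and 3 of Cbfa2t3, where 12.1% and 5.07% of all genes did. Within 1000 bases of a start, 5 members (6.02%) had a Zbtb1 peak, the promoter class and *Ndufb7* and *Cox7a2*, where 18.1% of genes did. These shares are descriptions, and gene length and spacing, which affect a nearest-gene assignment, were not matched.

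The Zbtb1 promoter peaks lay at *Ndufs7* (chr10:80249181-80249551, score 89.5), a core iron-sulfur subunit of complex I, at *Cox4i1* (chr8:120668150-120668520, score 67.2) and at *Cox5a* (chr9:57521073-57521443, score 40.4), both subunits of complex IV. The other members were *Ndufb7*, *Cox7a2*, *Atp5h*, *Cox7c* and *Cox6c*, with scores of 15.9 to 27. Of the 3 nuclear members called in sgZbtb1 only *Cox6c* had a Zbtb1 peak, at chr15:35937029-35937399 in exon 2 with a score of 15.9, close to the lowest in the list (15). The Cbfa2t3 promoter peaks lay at *Ndufaf3* (chr9:108567130-108567508, score 30.3), *Ndufs7* (chr10:80249165-80249543, score 25.3) and *Atp5e* (chr2:174464041-174464419, score 23.2). Its strongest peak assigned to a member, at chr15:59004201-59004579 with a score of 225, was nearest to *Ndufb9* but lay 70580 bases from its start.

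*Ndufs7* was the only member with a promoter peak of both factors, and the 2 peaks share 363 bases. Its level was 79.0, 85.1 and 75.6 CPM in sgControl and 78.8, 82.7 and 78.6 in sgZbtb1 (log2 fold change 0.00). In sgCbfa2t3 it gave 105, 94.8 and 89.7, apart from sgControl but not called (0.27, adjusted p = 0.504). *Cox4i1*, with 352, 449 and 450 in sgControl, overlapped in sgZbtb1 (440, 521 and 502). The central 80 bases of 5 promoter peaks are given below on the plus strand of GRCm38.p6, because these peaks are of the promoter class: chr10:80249327-80249406 for *Ndufs7* (Zbtb1), chr8:120668296-120668375 for *Cox4i1* (Zbtb1), chr9:57521219-57521298 for *Cox5a* (Zbtb1), chr9:108567280-108567359 for *Ndufaf3* (Cbfa2t3) and chr2:174464191-174464270 for *Atp5e* (Cbfa2t3). These 5 peaks, taken whole, were 58.5% to 76.5% G and C, and none held either of the motifs described next, so no base is in capitals.
Ndufs7: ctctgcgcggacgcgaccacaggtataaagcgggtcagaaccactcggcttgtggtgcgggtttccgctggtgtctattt
Cox4i1: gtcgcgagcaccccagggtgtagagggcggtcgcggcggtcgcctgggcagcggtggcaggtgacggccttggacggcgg
Cox5a: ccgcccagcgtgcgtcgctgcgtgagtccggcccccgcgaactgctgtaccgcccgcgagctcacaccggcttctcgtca
Ndufaf3: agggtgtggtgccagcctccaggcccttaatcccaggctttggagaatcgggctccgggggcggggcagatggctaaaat
Atp5e: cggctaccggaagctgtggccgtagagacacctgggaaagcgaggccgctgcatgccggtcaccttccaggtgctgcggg

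Promoters of respiratory genes are known for sites of the activator Nrf1 and of ETS factors such as GABP. RefSeq promoter windows of GRCm38.p6, from 250 bases before to 50 after the start, were found for 72 of 90 nuclear symbols. The Nrf1 core GCGCATGC (reverse GCATGCGC) was in 11 of these 72 (15.3%), where 2.71% of all 32851 windows and 6.70% of 8179 protein-coding genes in the fit held it. The members were *Atp5g2*, *Atp5k*, *Atp5l*, *Cox6a1*, *Ndufa6*, *Ndufa8*, *Ndufa11*, *Ndufaf4*, *Ndufaf5*, *Uqcr11* and *Uqcrc1*. A longer form of the site, GCGC, any base, then TGCGC, was in 12 (16.7%), against 2.82% and 8.02%. The ETS motif CCGGAAGT (reverse ACTTCCGG) was in 5 (6.94%: *Atp5h*, *Cox8a*, *Ndufs3*, *Uqcr11* and *Uqcrh*), against 3.89% and 10.6%. Both strands were searched, and the core and the longer form overlap each other.

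*Uqcr11* alone held both motifs. *Ndufa10* and *Ndufa12* held neither in this window, and *Cox6c* and *Cox4i1* had no window. The stretches below carry a match in capitals and were read 5′ to 3′ on the strand of the gene, the minus strand in each case. They are shown as 1 example of an Nrf1 core in reverse (*Ndufa6*, chr15:82354347-82354394), 1 of the ETS motif (*Uqcr11*, chr10:80406860-80406907) and 1 of its reverse (*Atp5h*, chr11:115419931-115419978).
Ndufa6: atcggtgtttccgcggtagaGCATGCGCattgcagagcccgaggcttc
Uqcr11: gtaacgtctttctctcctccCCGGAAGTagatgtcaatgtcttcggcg
Atp5h: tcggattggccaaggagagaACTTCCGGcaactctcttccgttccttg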

How the data were processed

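Sorted LP cells were profiled by QuantSeq 3′ FWD (75-base single reads). The authors trimmed reads with fastp, aligned them with STAR to mm10 and deposited CPM values, which they term TPM and did not divide by length; handling of reads with several matches is not given in the sources used here. Values were whole multiples of 1 read in at least 99.98% of cases (tolerance 0.0011), and 15 columns were used. A further 18 author columns (means, SDs, tests, fold changes) were not. The row without a gene identifier (at most 5.86e-05% of reads in a library) was left out. ChIP-seq peaks carry the authors' score from HOMER after Bowtie 1.1.1 alignment, from reproducible peaks of 2 replicates.

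All 15 libraries were fitted together with limma 3.58.1 (trend, R 4.3.3) on log2(CPM + 1), genes with a mean above 1, two-sided, Benjamini-Hochberg adjusted. Libraries are named biological replicates by the study. Alternatives were edgeR 4.0.16 and DESeq2 1.42.0 on recovered reads, size factors, totals without mt- reads, other pseudocounts and filters, a replicate block, and leaving out each library, and code was tested on simulated data. Members and gene lists were chosen with earlier results of these data known. Named were all mt- members, called members, the 6 largest non-overlapping nuclear changes per comparison (mean of at least 10), the 3 highest nuclear members per complex, isoform pairs and assembly factors, of which 1 nuclear member is not reported here. Python 3.11.15 was used for windows, promoters and peaks.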

Additional observations from a re-analysis of the deposited data

How the results depend on the processing

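The limits are 3 libraries a group, a shared sgControl and 1705416 to 2095447 reads per library, where 3 reads equal up to 1.76 CPM. *mt-Nd4* and *mt-Cytb* were called in sgZbtb1 in all 9 other settings and all 6 leave-outs, *mt-Nd5* in 8 and 6, *mt-Nd1* in 8 and 5, *Cox6c* in 9 and 5, *Ndufa12* in 9 and 4, *Ndufa10* in 8 and 3 and *mt-Co1* in 4 and 0. No called result changed direction in the settings run, and causes of the shifts below were not tested.

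The nuclear median in sgZbtb1 was 0.17 with size factors, edgeR or DESeq2 and 0.14 without mt- reads in the total. With all genes above 0 in the fit, 2 mt- members were called in sgZbtb1 (1.77% of all genes, 4.79% with the filter) and 0 members across conditions (1.36%, against 4.54%). DESeq2 called 1 nuclear member in sgCbfa2t2 (0.138% of all genes). By medians of log2 values, the mt- minus nuclear difference in sgLmo2 lay at −0.23 relative to sgControl. At a score of 30 or more, 3 of 83 fitted nuclear members had any Zbtb1 peak and 6 any Cbfa2t3 peak, where 14.3% and 12.8% of all genes did. In the promoter class the counts were 3 and 1, where 6.59% and 2.05% of all genes had such a peak.

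Leaving out 1 library gave log2 mt- over nuclear ratios, minus that of sgControl, of −0.22 to −0.13 in sgLmo2, −0.49 to −0.39 in sgZbtb1, −0.39 to −0.22 in sgCbfa2t2 and −0.35 to −0.20 in sgCbfa2t3. In the same order mt- medians were −0.19 to −0.070, −0.33 to −0.24, −0.23 to −0.16 and −0.20 to −0.10, and nuclear medians 0.04 to 0.09, 0.13 to 0.15, 0.08 to 0.18 and 0.10 to 0.16. Calls numbered 3 to 9 across conditions, 3 to 4 for mt- and 1 to 4 for nuclear members in sgZbtb1 (the 4 include *Cox6a2*, lower), 0 to 1 for each in sgCbfa2t2, and 0 to 1 for mt- members in sgCbfa2t3. The share of all genes called was 2.93% to 5.05%, 2.65% to 3.97%, 0.0173% to 0.225% and 0.225% to 0.511% in the same order of fits.

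Libraries with the same replicate number shared a small part of their deviations. The mean correlation of deviations was 0.0279 (range −0.0072 to 0.0656, over 30 pairs), against −0.0139 between different numbers. Of 15 libraries, 14 were closest to their own number. The fit used in the text has no replicate term, and whether the numbers mark a batch or a pairing was not tested. With a replicate block, 2 nuclear members were called in sgCbfa2t2, 1 mt- member in sgCbfa2t3 and 11 members across conditions. Of all genes, 0.312%, 0.805% and 6.21% were called in that order, against 0.147%, 0.537% and 4.54% without it. In sgZbtb1, 3 nuclear and 5 mt- members were called with or without it, where 6.14% of all genes were called, against 4.79%.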
